A study of Homo sapiens with 24 samples.

Results

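The p52/RelB KD and the p50/RelA KD were set against each other in L1236, an established Hodgkin lymphoma line of B cell origin, to ask for which genes the effects of the knockdowns (KDs) differed. All 24 arrays of the series entered the comparison, in 4 arms of 6 arrays. In experiment 1 (G1), cells received siRNA to NFKB1 at 1 µM for 3 days and to RELA at 500 nM for 2 days. In experiment 2 (G2), cells received siRNA to RELB at 1 µM for 3 days and to NFKB2 at 500 nM for 2 days. The control arm of each experiment was given non-targeting siRNA (siNT). Uptake was not measured on these arrays, and all cells were harvested 1 day after the treatment. Every arm held 2 siRNA sequences in each of 3 replicates. Replicates were biological per the study's methods, and each replicate held an array for either sequence of both arms.

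The quantity reported is the difference, which is the p52/RelB KD effect minus the p50/RelA KD effect. Each effect is KD minus siNT of the same experiment on the log2 scale. A difference above 0 means that the p52/RelB KD effect lay above the p50/RelA KD effect, and it can arise from a fall in p50/RelA KD, a rise in p52/RelB KD, or both. On this array, probes against the transcripts of a locus are grouped into a transcript cluster, which gives 1 value. Of 33297 clusters on the array, 14647 carried a gene symbol and lay at 6 or more in most arrays of each experiment, and these 14647 clusters of 13859 genes were tested. Calls needed an adjusted p under 0.05 and a difference of 10% (0.14 in log2) or more.

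NF-κB is a family of dimeric transcription factors. In the canonical pathway, IκB proteins hold p50/RelA in the cytoplasm until IκB kinase marks them for degradation. In the non-canonical pathway, the kinase NIK (gene MAP3K14) drives the processing of p100, the product of NFKB2, to p52, which pairs with RelB. Hodgkin lymphoma cells are known for constant activity of both pathways, and for secreting chemokines such as CCL17 and CCL22. NFKB1 encodes p105, the precursor of p50.

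The siRNAs are shown because they define the arms: any sequence-specific effect would belong to these oligonucleotides. They are given 5′ to 3′ as the study lists them, with no part marked, since the strand is not stated.
NFKB1 siRNA 1: ccaaaguauaaagauauua
NFKB1 siRNA 2: ggcucauguuuacagcuuu
RELA siRNA 1: cuuccaaguuccuauagaa
RELA siRNA 2: ggauugaggagaaacguaa
NFKB2 siRNA 1: ucauugagcagauagucua
NFKB2 siRNA 2: cugucaagaucuguaacua
RELB siRNA 1: guaggauucggaaaagauu
RELB siRNA 2: uggagaucaucgacgagua
All 8 are 19 bases long, and their GC content ran from 21.1% for NFKB1 siRNA 1 to 47.4% for RELB siRNA 2. Among the 28 pairs, 0 shared bases 2 to 8 on either strand. Which listed sequence is sequence 1 or 2 of the arrays is not stated, and their targets were not placed on a genome here.

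The targeted genes NFKB1, RELA and NFKB2 gave 3 of the 5 differences over 2-fold, and ARG2 and CLMN the others. Each of the 4 targets fell in its own KD arm. NFKB1 had values of 11.07 (lowest), 11.19 (median) and 11.31 (highest) in siNT of experiment 1 and of 8.91, 9.20 and 9.68 in p50/RelA KD. In experiment 2 NFKB1 lay at 11.17, 11.30 and 11.34 in siNT and at 11.21, 11.46 and 11.54 in p52/RelB KD. The arms of experiment 1 did not overlap for NFKB1, and those of experiment 2 did. NFKB1 fell to 26.5% of siNT in p50/RelA KD (effect -1.92), its p52/RelB KD effect was 0.15, and the difference was 2.06 ± 0.14 (SE; limma adjusted p = 9.83e-09).

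RELA, the transactivating partner of p50, ran from 9.79 to 9.90 in siNT and from 8.13 to 8.81 in p50/RelA KD, and from 9.77 to 9.99 and 9.83 to 10.04 in siNT and KD of experiment 2. RELA fell to 38.1% of siNT in p50/RelA KD, and its difference was 1.45 ± 0.11 (limma adjusted p = 2.48e-08). NFKB2 lay at 10.10, 10.19 and 10.29 in siNT and at 9.89, 10.03 and 10.09 in p50/RelA KD. In experiment 2 its values were 10.16, 10.32 and 10.41 in siNT and 8.72, 8.99 and 9.07 in p52/RelB KD. NFKB2 thus fell in both KDs, to 87.8% of siNT in p50/RelA KD and to 39.4% in p52/RelB KD, with a difference of -1.15 ± 0.05 (limma adjusted p = 1.92e-11). The calls for NFKB1, RELA and NFKB2 held in all 50 alternatives.

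RELB moved least of the 4 targets. It lay at 8.64, 8.73 and 8.78 in siNT and at 8.63, 8.75 and 8.76 in p50/RelA KD, and at 8.95, 9.07 and 9.15 against 8.59, 8.80 and 8.90 in experiment 2. The arms of experiment 2 did not overlap, but RELB was still at 82.0% of siNT in p52/RelB KD. Its difference was -0.28 ± 0.06 (limma adjusted p = 0.00887), and the call was lost in 6 of 50 alternatives, among them the fits without replicate 1 or 3 of experiment 1 and without replicate 2 of experiment 2, where the difference was -0.26 each time. REL, the subunit c-Rel that no siRNA was aimed at, lay at 10.96 to 11.21 and 10.94 to 11.09 in experiment 1 and fell from a range of 11.12 to 11.34 to a range of 10.34 to 10.87 in p52/RelB KD, with a difference of -0.47 ± 0.08 (limma adjusted p = 0.00135). Protein was not measured on these arrays, and the array gives no processing of p105 or p100.

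In all, 637 clusters of 618 genes were called for the difference, 4.35% of those tested. The difference lay above 0 for 278 clusters (1.90%) and below 0 for 359 (2.45%). As background in the same fit, 1.02% of clusters were called lower and 0.444% higher in p50/RelA KD, and 7.70% lower and 5.02% higher in p52/RelB KD. The median absolute difference among the called was 0.30, with 63 clusters over 1.5-fold and 5 over 2-fold. At an unadjusted p under 0.05 there were 2444 clusters. The arrays of the 2 sequences in a biological replicate entered this fit as separate units. With the sequences averaged to 1 value for each replicate of an arm, 117 clusters were called, 114 of them among the 637. Over all genes tested the median difference was 0.01, and since normalization sets arrays to a common distribution, a shift of all genes could not be seen in these values.

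**Figure D1:**
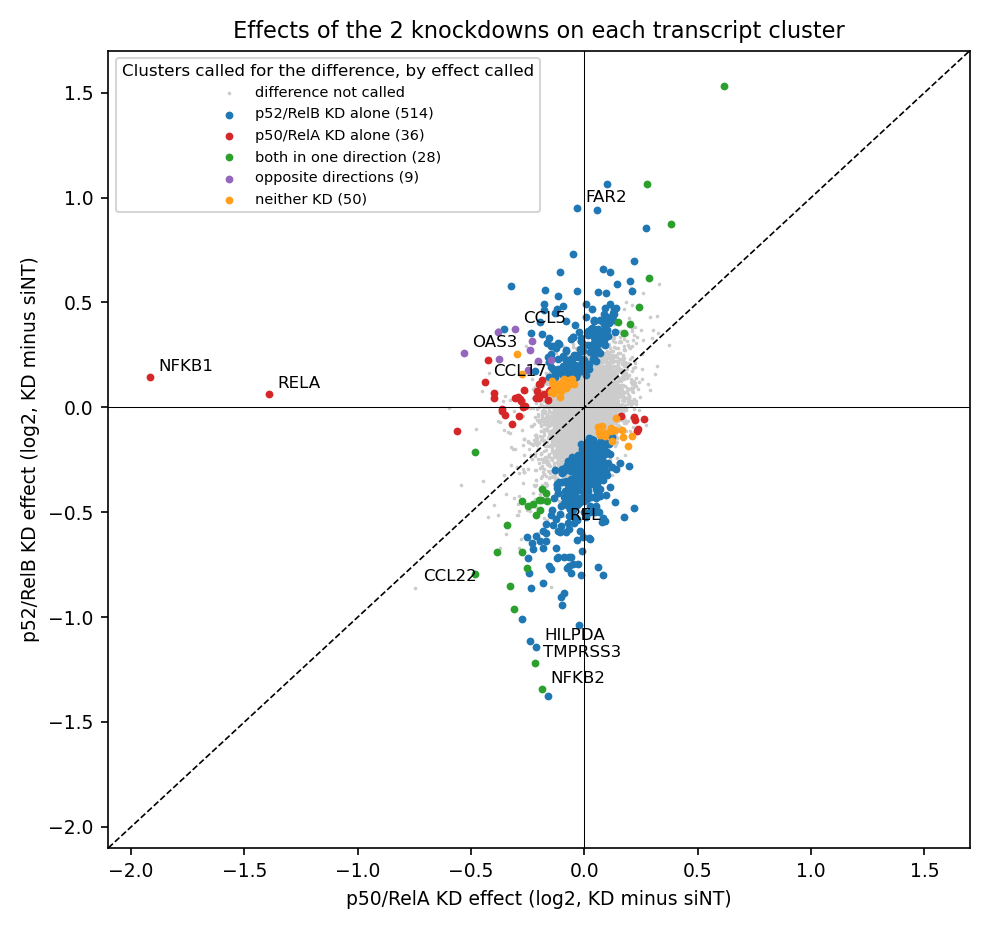
Each point is a transcript cluster, with the p50/RelA KD effect on the x axis and the p52/RelB KD effect on the y axis, both as log2 KD minus siNT; the dashed line marks equal effects and grey points were not called for the difference. Most of the coloured points, 514 of 637, lie along the vertical axis, where the p52/RelB KD effect alone was called, and the 9 purple points in the upper left quadrant were lower in p50/RelA KD and higher in p52/RelB KD.

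Sorted by which KD effect was itself called, 514 of the 637 clusters (80.7%) had a called p52/RelB KD effect and none for p50/RelA KD, 316 lower and 198 higher. A further 36 had a called p50/RelA KD effect alone, 30 lower and 6 higher. In 28 both effects were called in the same direction and differed in size, in 9 they were called in opposite directions, and in 50 neither effect was called although their difference was. All 9 of the opposite kind were lower in p50/RelA KD and higher in p52/RelB KD. Conversely, 1312 clusters called for p52/RelB KD (70.4% of its calls) were not called for the difference, so a call in p52/RelB KD alone did not by itself show that the KDs differed. The median 95% interval reached 0.15 on either side of a difference, and it lay within 10% either way for 7.93% of clusters, so for most clusters without a call these arrays still allow a difference of 10% or more.

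The experiments were scanned in different batches and normalized apart, so the pair of targets cannot be told apart from experiment, normalization or scan batch. An array that stood apart, p52/RelB KD of sequence 2 in replicate 3, had a mean correlation of 0.986 with its arm. Without that array 936 clusters were called, 490 above 0 and 446 below. Without replicates 2 or 3 of experiment 1, 418 and 216 were called, and without replicates 1 or 2 of experiment 2, 316 and 415. Each sequence alone leaves 12 arrays. With sequence 1 alone 354 clusters were called, and with sequence 2 alone, which keeps the outlying array, 3 were. Of the differences of the 112 genes named here, 87 lost their call with sequence 2 alone. Those of CCL5, OAS3, TMPRSS3, NFKBIA and CCL17 were among them.

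Genes of hypoxia and glycolysis formed the list with the lowest median difference. Such genes are known to be induced by HIF transcription factors when oxygen is short and to serve glucose uptake, glycolysis and mitophagy. Of 40 tested, all 40 had a difference below 0, 19 were called below 0 and 0 above, where 6452 of all 13859 genes tested had a difference below 0. The median difference was -0.31, beside 0.01 over all genes. In p52/RelB KD 30 of the 40 were called lower, and in p50/RelA KD 0 were called in either direction. Over all clusters 2.45% were called below 0, and 7.70% were called lower in p52/RelB KD. In p50/RelA KD 1.02% of all clusters were called lower and 0.444% higher, so 0 of 40 was near those shares.

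HILPDA, which encodes a lipid droplet protein, lay at 10.25, 10.37 and 11.08 in siNT and at 9.86, 10.34 and 10.81 in p50/RelA KD. In experiment 2 it lay at 10.50, 11.39 and 12.26 in siNT and at 9.69, 10.12 and 11.03 in p52/RelB KD. The arms overlapped in both experiments, since replicates differed strongly in siNT of experiment 2, and the comparison within replicates gave a fall to 45.3% of siNT in p52/RelB KD. The difference of HILPDA was -0.93 ± 0.19 (limma adjusted p = 0.00606). DDIT4, an inhibitor of mTORC1, ran from 7.92 to 8.54 and from 7.72 to 8.54 in the arms of experiment 1, and from 8.40 to 9.76 in siNT against 7.74 to 8.73 in p52/RelB KD. It fell to 53.5% of siNT in p52/RelB KD, with a difference of -0.80 ± 0.15 (limma adjusted p = 0.00241). BNIP3L, a mitophagy receptor, did not overlap between the arms of experiment 2, at 11.35 to 11.72 in siNT and 10.53 to 11.08 in KD, and its difference was -0.69 ± 0.13.

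PDK1, the kinase that inhibits pyruvate dehydrogenase, ran from 10.03 to 10.72 and from 10.02 to 10.51 in siNT and KD of experiment 1. In experiment 2 it ran from 10.47 to 11.06 in siNT and from 9.59 to 10.28 in KD. Its difference was -0.70 ± 0.15 (limma adjusted p = 0.00953). PFKFB4 (-0.87), which makes the activator of phosphofructokinase, and INSIG2 (-0.72), which holds back sterol synthesis, had large differences too, but their calls were lost in 23 and 24 of 50 alternatives. Among enzymes of glycolysis itself, the differences of ALDOC (-0.63), LDHA (-0.30), PGK1 (-0.24) and PKM (-0.22) were called, and those of GAPDH (-0.03) and ENO1 (-0.03) were not. VEGFA, the angiogenic growth factor, had a called difference of -0.36. The other called members were KDM3A (-0.64), a histone demethylase, P4HA1 (-0.62) and P4HA2 (-0.51), collagen prolyl hydroxylases, BNIP3 (-0.60), BHLHE40 (-0.42), ERO1A (-0.37), EGLN3 (-0.32), an oxygen-sensing prolyl hydroxylase of HIF, and PFKL (-0.28).

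The replicates of p50/RelA KD differed in sign. The median effect of the 40 genes in p50/RelA KD was -0.14, -0.14 and 0.14 in replicates 1, 2 and 3, and in p52/RelB KD it was -0.41, -0.32 and -0.32. With sequence 1 alone the median difference was -0.31 and with sequence 2 alone -0.28. Without replicate 3 of experiment 1 the median difference was -0.20, 36 of 40 were below 0 and 5 were called, and HILPDA (-0.70) and PDK1 (-0.52) lost their calls. Without replicate 1 of experiment 2, 6 were called, and with the sequences averaged, 5 were. Without the siNT array of sequence 1 in replicate 3 of experiment 2, 12 were called. The mean level of the 40 genes was also set against siNT of the same sequence number and replicate. It was lower in p52/RelB KD in 6 of 6 pairs of arrays, and lower in p50/RelA KD in 4 of 6. Sequence numbers do not relate a KD siRNA to a non-targeting one. The 6 pairs come from 3 replicates and are not independent.

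**Figure D2:**
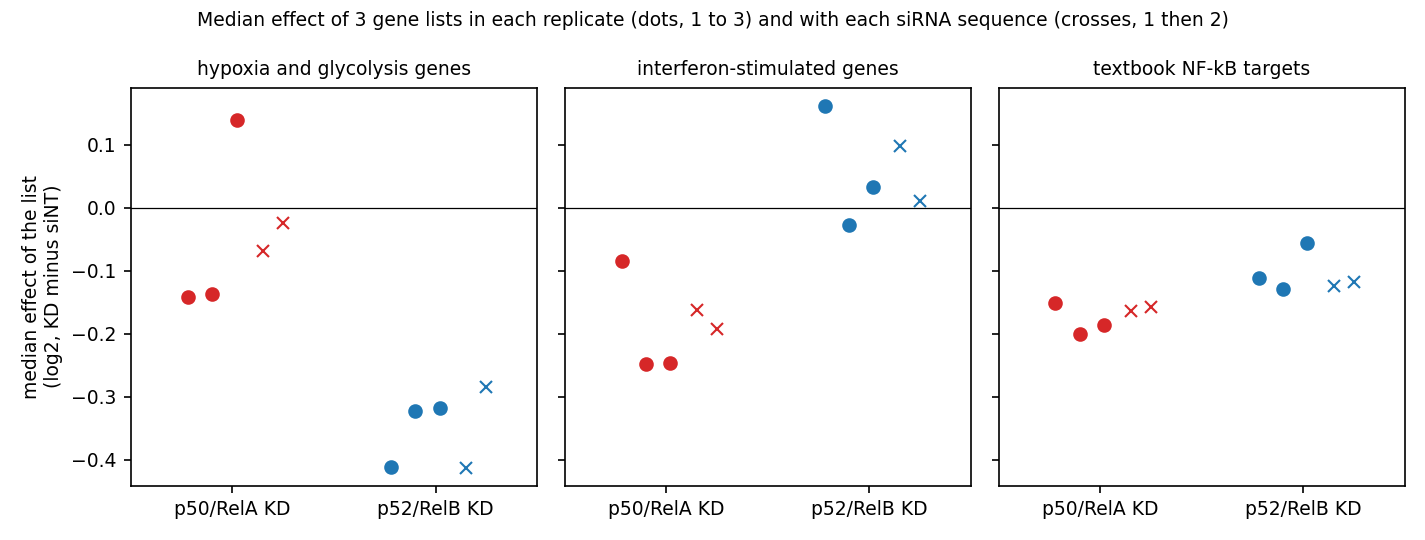
The y axis gives the median effect of a gene list (log2, KD minus siNT); dots are replicates 1 to 3 from left to right and crosses siRNA sequences 1 and 2, red for p50/RelA KD and blue for p52/RelB KD. The hypoxia and glycolysis list lay between -0.41 and -0.32 in the p52/RelB KD replicates and at 0.14 in replicate 3 of p50/RelA KD, and the interferon list lay below 0 in all p50/RelA KD replicates.

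Interferon-stimulated genes differed the other way. These genes are induced by type I and II interferon through STAT and IRF factors and encode antiviral proteins. Of 36 tested, 8 were called above 0 and 0 below, 31 had a difference above 0 (7407 of 13859 over all genes), and the median difference was 0.26. In p50/RelA KD 7 were called lower and 0 higher, and in p52/RelB KD 4 were called lower and 4 higher. Over all clusters 1.90% were called above 0. The shares lower and higher were 1.02% and 0.444% in p50/RelA KD, and 7.70% and 5.02% in p52/RelB KD. The median effect of the 36 genes was -0.18 in p50/RelA KD and 0.06 in p52/RelB KD.

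OAS3, an enzyme that makes the activator of RNase L, lay at 7.78, 8.04 and 8.53 in siNT and at 7.37, 7.50 and 7.86 in p50/RelA KD, and at 7.66, 7.88 and 8.02 in siNT and 7.88, 8.06 and 8.61 in p52/RelB KD. The arms overlapped slightly in each experiment. OAS3 fell to 69.2% of siNT in p50/RelA KD and rose to 120% in p52/RelB KD, with a difference of 0.79 ± 0.10 (limma adjusted p = 3.19e-05). The rise in p52/RelB KD was 0.39 with sequence 1 and 0.12 with sequence 2. IFIT3, which binds viral RNA with other IFIT proteins, had effects of -0.36 in p50/RelA KD, not called, and 0.38 in p52/RelB KD, called, with a difference of 0.73 ± 0.15 (limma adjusted p = 0.00618). XAF1, a proapoptotic interferon target, fell to 74.4% of siNT in p50/RelA KD, had a p52/RelB KD effect of 0.22 that was not called, and a difference of 0.65 ± 0.13.

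DTX3L and PARP9, which form a ubiquitin ligase complex, rose in p52/RelB KD alone, with differences of 0.49 and 0.43. IFI35 (0.35) fell in p50/RelA KD alone. SAMD9L (0.55) and PARP14 (0.43) were called for the difference while neither KD effect was called, and the call for PARP14 was lost in 20 of 50 alternatives. The members were not uniform: IFIH1, the RNA sensor MDA5, and EPSTI1 fell by 0.52 and 0.60 in p52/RelB KD, and their differences of -0.10 and -0.26 were not called. IFIT1 (0.75), IFIT2 (0.58) and IFIT5 (0.55) did not pass the test (limma adjusted p = 0.0654, 0.122 and 0.0513).

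The number of interferon genes called depended on a few arrays. Without the outlying p52/RelB KD array of sequence 2 in replicate 3, 17 were called above 0 and the median difference was 0.29. With the sequences averaged, 4 were called above 0. Without replicate 3 of experiment 1, 2 were called, with a median of 0.21, and IFIT3 (0.69) and XAF1 (0.57) lost their calls, and without replicate 1 of experiment 2, 4 were called. The mean level of the 36 genes was also set against siNT of the same sequence number and replicate. It was lower in p50/RelA KD in 6 of 6 pairs of arrays, and higher in p52/RelB KD in 4 of 6. These pairs, too, come from 3 replicates and are not independent. Among interferon regulatory factors, IRF1 was called above 0 (0.32 ± 0.09) and 7 of 8 were not, and the call for IRF1 was lost in 27 of 50 alternatives. IRF1 fell to 78.3% of siNT in p50/RelA KD.

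**Figure D3:**
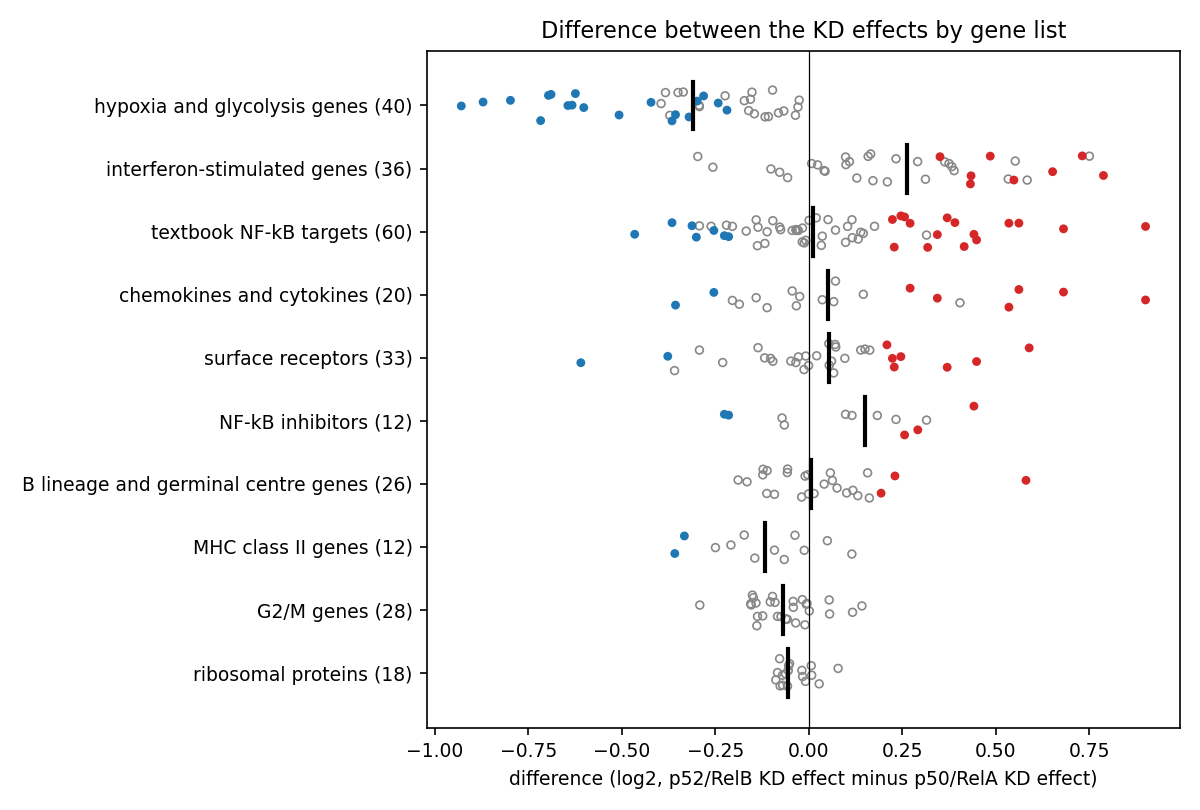
Each dot is a gene, placed by its difference (log2, p52/RelB KD effect minus p50/RelA KD effect) on the x axis within its list; filled red and blue dots were called above and below 0, open dots were not called, black bars are medians and the number of genes tested is in brackets. The hypoxia and glycolysis genes all lie below 0, the interferon genes mostly above 0, and the textbook NF-κB targets spread to both sides of a median of 0.01.

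Textbook NF-κB targets did not shift together. Of 60 tested, 16 were called above 0 and 7 below, and the median difference was 0.01. Calls were thus made for 38.3% of the list, beside 4.38% of all genes tested. Both KDs lowered many of the 60: 25 fell and 0 rose in p50/RelA KD, 26 fell and 7 rose in p52/RelB KD. Over all clusters 1.02% fell and 0.444% rose in p50/RelA KD, and 7.70% fell and 5.02% rose in p52/RelB KD. Some members of the list are genes the study singled out on these samples. The list is therefore not independent evidence of their direction in either KD. Without replicate 3 of experiment 1, 9 were called above 0 and 2 below, without replicate 1 of experiment 2, 2 were called below, and without replicates 1 or 2 of experiment 1 or replicate 2 of experiment 2, 3 were. By the calls of both effects, 14 of the 60 fell in both KDs, 9 in p50/RelA KD alone and 12 in p52/RelB KD alone, 5 rose in p52/RelB KD alone, 2 fell in p50/RelA KD and rose in p52/RelB KD, and 18 were called in neither.

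Of the textbook targets with a called difference, 7 fell in p50/RelA KD alone. NFKBIA, which encodes the inhibitor IκBα, lay at 12.40, 12.48 and 12.57 in siNT and at 12.02, 12.05 and 12.22 in p50/RelA KD, and at 12.33, 12.45 and 12.48 in siNT and 12.40, 12.45 and 12.61 in p52/RelB KD. The arms of experiment 1 did not overlap and those of experiment 2 did. NFKBIA fell to 75.8% of siNT in p50/RelA KD, and the difference was 0.44 ± 0.05 (limma adjusted p = 3.61e-05). TNFRSF9, the costimulatory receptor 4-1BB, fell from a range of 10.30 to 10.64 to a range of 9.75 to 10.07 in p50/RelA KD, against 11.00 to 11.35 and 10.82 to 11.30 in experiment 2, and its difference was 0.45 ± 0.06.

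CCL17, the chemokine TARC that draws T helper cells, lay at 8.92, 9.04 and 9.22 in siNT and at 8.53, 8.59 and 8.77 in p50/RelA KD, and at 9.11, 9.32 and 9.48 in siNT and 9.25, 9.40 and 9.59 in p52/RelB KD. CCL17 fell to 73.7% of siNT in p50/RelA KD without overlap, while its p52/RelB KD effect of 0.12 was not called, and the difference was 0.56 ± 0.07 (limma adjusted p = 2.63e-05). IL6 (0.34), IRF1 (0.32), NFKBIE (0.26), the gene of IκBε, and ICAM1 (0.25), an adhesion molecule, were called in the same way, as was DUSP2 (0.36), a phosphatase that acts on MAP kinases and no member of that list. The call for NFKBIE was lost in 26 of 50 alternatives.

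In p52/RelB KD, 9 of 20 chemokines and cytokines fell and 4 rose, beside 7.70% and 5.02% of all clusters. CCL3, which encodes MIP-1α, ran from 8.07 to 8.61 and from 7.72 to 8.25 in siNT and KD of experiment 1, and from 8.65 to 9.26 and from 9.19 to 10.10 in those of experiment 2. CCL3 rose to 149% of siNT in p52/RelB KD, its p50/RelA KD effect of -0.32 was not called, and the difference was 0.90 ± 0.12 (limma adjusted p = 6.88e-05). CSF1, the macrophage growth factor, rose to 127% of siNT in p52/RelB KD, with a difference of 0.54 ± 0.07. BCL2A1 (0.42), an inhibitor of apoptosis, CD83 (0.39) and FAS (0.23), a death receptor, also rose in p52/RelB KD alone, but the call for the difference of FAS was lost in 24 of 50 alternatives. EBI3 (0.27), a cytokine subunit, fell in both KDs and further in p50/RelA KD.

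Of the textbook targets, 7 had a called difference below 0. REL (-0.47), BIRC2 (-0.37), which encodes cIAP1, BCL3 (-0.23), a nuclear IκB, and TNIP1 (-0.21), a partner of A20, fell in p52/RelB KD alone, and TNFAIP6 (-0.31), HEY1 (-0.30), a Notch target, and LTA (-0.25), the gene of lymphotoxin α, fell in both KDs and further in p52/RelB KD. The call for BIRC2 was lost in 24 of 50 alternatives. On the pathway's own kinases, MAP3K14, which encodes NIK, rose to 136% of siNT in p52/RelB KD, from a range of 8.82 to 9.07 to a range of 9.28 to 9.41, and its difference was 0.36 ± 0.07 (limma adjusted p = 0.00478). Of the 13 kinases and adaptors tested, MAP3K14 and BIRC2 were the ones called, 15.4% of the list beside 4.35% of all clusters. Of 12 inhibitors tested, NFKBIA, NFKBIE and OTULIN (0.29) were called above 0 and BCL3 and TNIP1 below, 41.7% of the list. The call for OTULIN was lost in 27 of 50 alternatives.

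The 9 clusters called in opposite directions were OAS3, PRR5L, CCL5, APOD, TESC, EGR1, IGSF3, SNX11 and CD44. CCL5, the chemokine RANTES, lay at 11.15, 11.25 and 11.42 in siNT and at 10.80, 10.91 and 11.20 in p50/RelA KD, and at 11.39, 11.49 and 11.51 in siNT and 11.72, 11.83 and 12.01 in p52/RelB KD. The arms of experiment 2 did not overlap and those of experiment 1 overlapped. CCL5 fell to 80.8% of siNT in p50/RelA KD and rose to 130% in p52/RelB KD, with a difference of 0.68 ± 0.06 (limma adjusted p = 2.89e-07). The effects were -0.29 and -0.32 with sequences 1 and 2 in p50/RelA KD, and 0.41 and 0.33 in p52/RelB KD.

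EGR1, an immediate early transcription factor, ran from 10.05 to 10.85 and from 9.97 to 10.51 in experiment 1, and from 10.18 to 10.66 and from 10.50 to 10.86 in experiment 2. Replicates spread more than the effects did, and within replicates EGR1 fell by 0.24 in p50/RelA KD and rose by 0.27 in p52/RelB KD, with a difference of 0.51 ± 0.07. PRR5L (0.74), which binds mTORC2, APOD (0.61), a lipocalin, and TESC (0.55), a calcium-binding protein, had the largest differences of the kind beside OAS3 and CCL5. CD44 (0.37 ± 0.05), the hyaluronan receptor, fell to 90.3% of siNT in p50/RelA KD and rose to 117% in p52/RelB KD. Without the outlying p52/RelB KD array, 22 clusters were called in opposite directions, and without replicate 3 of experiment 2, 14 were. Without replicates 2 or 3 of experiment 1, 4 and 5 were, and without replicate 1 of experiment 2, 5 were.

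**Figure D4:**
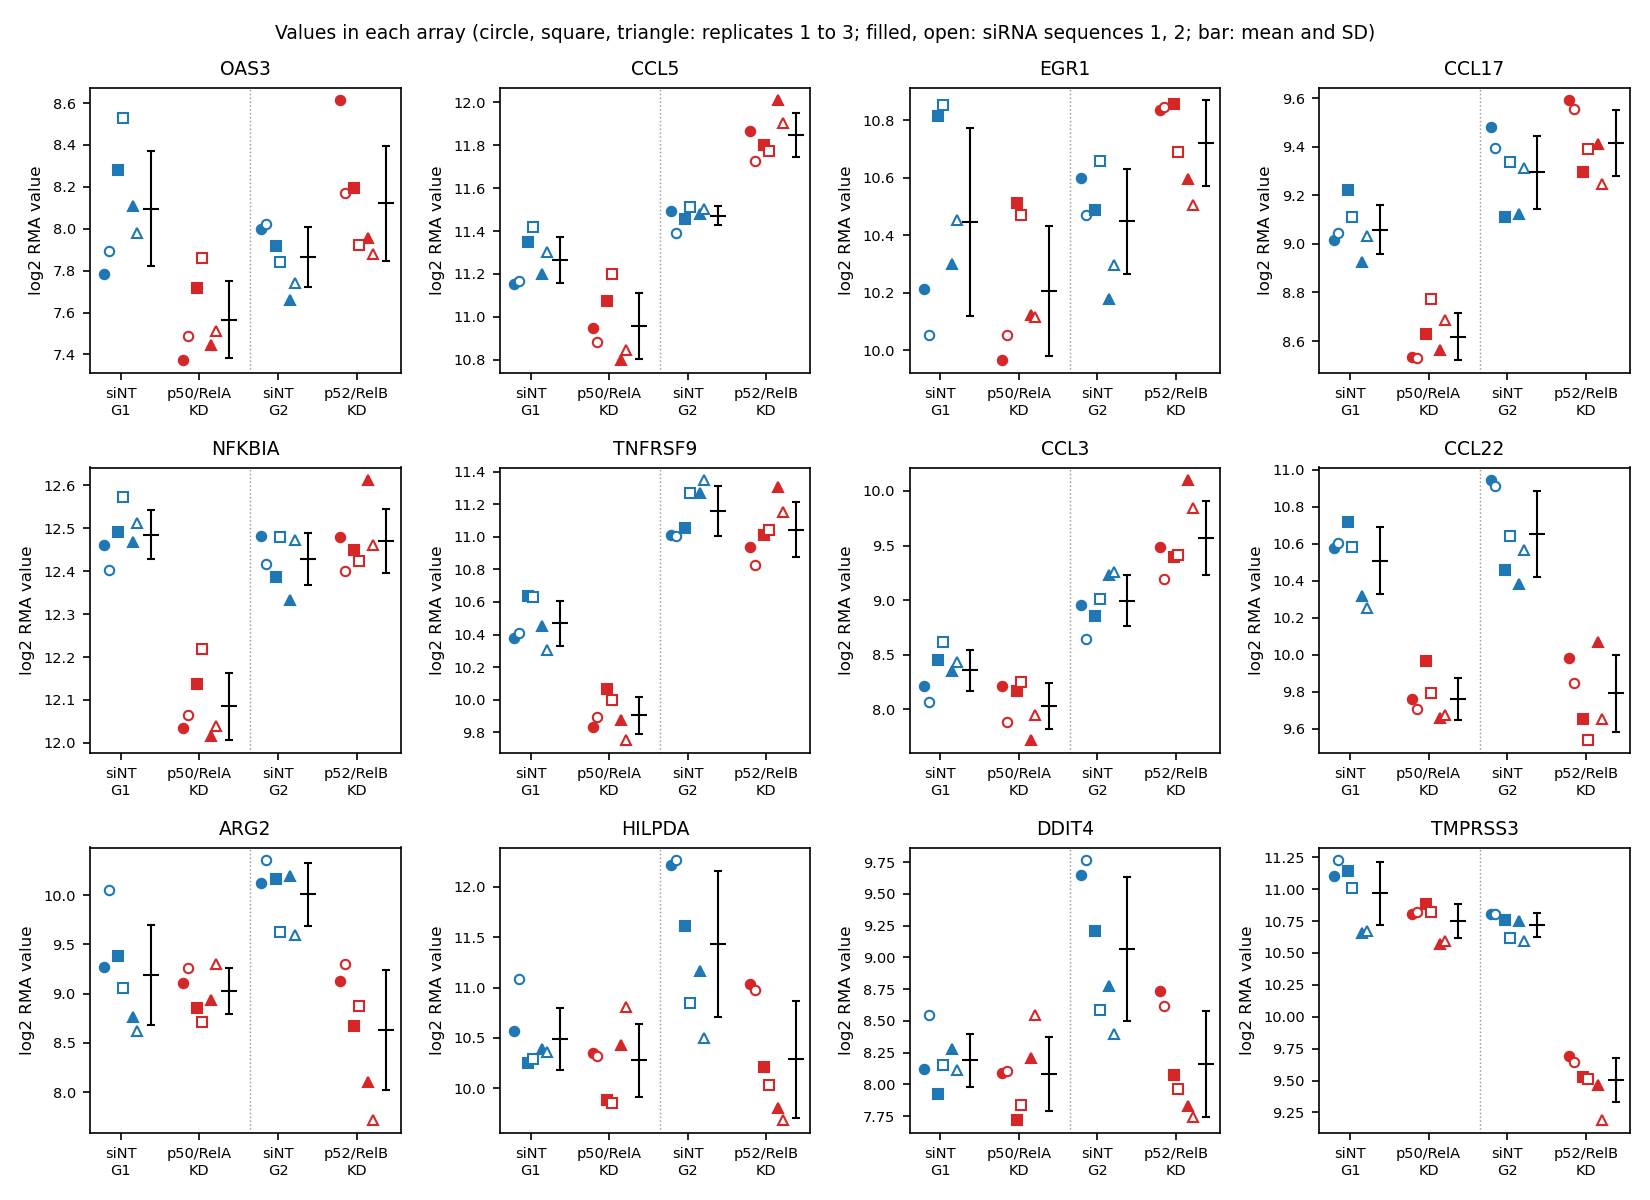
Log2 RMA values of 12 genes in each of the 24 arrays: blue points are siNT and red points KD arrays, circles, squares and triangles are replicates 1, 2 and 3, filled and open symbols are siRNA sequences 1 and 2, and black bars give the mean and SD of the 6 arrays. Levels are comparable within an experiment, left or right of the dotted line. CCL5 moved down in experiment 1 and up in experiment 2, CCL17, NFKBIA and TNFRSF9 moved down in experiment 1, CCL22 moved down in both, and ARG2, HILPDA, DDIT4 and TMPRSS3 moved mainly in experiment 2.

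The largest differences below 0, apart from NFKB2, were those of ARG2 (-1.22), CLMN (-1.02), TMPRSS3, HILPDA (-0.93) and LOC646214 (-0.88). ARG2, a mitochondrial arginase, lay at 8.62, 9.16 and 10.05 in siNT and at 8.71, 9.02 and 9.30 in p50/RelA KD, and at 9.59, 10.14 and 10.35 in siNT and 7.72, 8.77 and 9.30 in p52/RelB KD. ARG2 fell to 38.5% of siNT in p52/RelB KD without overlap, lower than for any siRNA target there, and the difference of -1.22 ± 0.26 (limma adjusted p = 0.00729) lost its call without replicate 3 of experiment 1, at -0.92. TMPRSS3, a membrane serine protease, fell in both KDs, to 85.9% of siNT in p50/RelA KD and to 43.0% in p52/RelB KD, with a 95% interval of the difference from -1.16 to -0.84, and its effects with sequences 1 and 2 were -0.22 and -0.22 in p50/RelA KD and -1.21 and -1.22 in p52/RelB KD.

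PAMR1 (-0.82), RNASE1 (-0.78), a secreted ribonuclease, IZUMO4 (-0.73) and ACADSB (-0.73), an enzyme of branched-chain amino acid breakdown, fell in p52/RelB KD alone, as did GPR160 (-0.84) and UPK1A (-0.80). On the outlying p52/RelB KD array GPR160 lay at 6.34 and LOC646214 at 6.98, where the next values of the arm were 7.17 and 8.20, and the call for LOC646214 was lost in 20 of 50 alternatives. PHF19 (-0.65 ± 0.07), a subunit of Polycomb repressive complex 2, fell to 80.6% of siNT in p50/RelA KD and to 51.3% in p52/RelB KD. SEMA7A (-0.52), a membrane-anchored semaphorin, and KCNN1 (-0.51), a potassium channel, likewise fell in both KDs and further in p52/RelB KD.

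The largest differences above 0 after NFKB1 and RELA were those of FAR2 (0.98 ± 0.07), a fatty acyl-CoA reductase, KCNJ15 (0.96 ± 0.08), a potassium channel, ASPN (0.91 ± 0.19), CCL3 (0.90) and MIR9-1 (0.88 ± 0.12). FAR2 lay at 8.85 to 9.23 and 8.86 to 9.18 in experiment 1 and rose from a range of 8.42 to 8.70 to a range of 9.22 to 9.64 in p52/RelB KD, 193% of siNT. KCNJ15 rose to 209% of siNT in p52/RelB KD, from a range of 7.25 to 7.50 to a range of 8.17 to 8.64. PRICKLE1 (0.79 ± 0.07), a protein of planar cell polarity, rose in both KDs, to 121% and 209% of siNT, and EVI2B (0.49) to 130% and 184%. ASPN, an extracellular matrix proteoglycan, rose in both as well, but lay at 6.83 on the outlying p52/RelB KD array against 7.66 or more on the others.

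Several of these clusters stand for small RNAs. RNU11, the U11 RNA of the minor spliceosome, rose to 157% of siNT in p52/RelB KD (difference 0.75 ± 0.09) and SNORA80E to 147% (0.74 ± 0.10). Among RNAs that RefSeq types as snRNA, 3 of 18 were called above 0 and 0 below, beside 1.90% above 0 over all clusters. Among snoRNAs these were 10 of 100 and 0, and among miRNA genes 2 of 60 and 0. The snoRNAs did not shift together: 53 differences lay above 0 and 47 below, with a median of 0.01. Their median p52/RelB KD effect was 0.08 with sequence 1 and -0.07 with sequence 2. These groups were formed after the values of RNU11 and SNORA80E had been seen. Clustered histone genes were called above 0 for 10 of 56 clusters and below for 0, where the near-identical genes cannot be assigned with certainty. MIR9-1 rose to 192% of siNT in p52/RelB KD, from a range of 6.52 to 6.97 to a range of 7.39 to 7.82, and lay near the limit of 6 in experiment 1, at 5.94 to 6.80. The array cluster reads the transcript of the locus and not the mature miRNA. The mature sequences of the locus follow from RefSeq (GRCh38.p14, minus strand), with the seed, bases 2 to 8, in capitals.
hsa-miR-9-5p, chr1:156420392-156420414: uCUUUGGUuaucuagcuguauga
hsa-miR-9-3p, chr1:156420354-156420375: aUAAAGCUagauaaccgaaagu

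Other genes moved in both KDs. In the same direction, 115 clusters were called in both KDs, 77 lower and 38 higher, which is 53.7% of the p50/RelA KD calls and 6.17% of the p52/RelB KD calls. The p52/RelB KD effect was the larger in 83 of the 115, with a median ratio of 1.36. Of the 115, 28 were called for the difference.

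CCL22, the chemokine MDC, fell furthest in p50/RelA KD among those without a called difference. It lay at 10.25, 10.58 and 10.71 in siNT and at 9.66, 9.73 and 9.97 in p50/RelA KD, and at 10.38, 10.61 and 10.94 in siNT and 9.54, 9.75 and 10.07 in p52/RelB KD. The arms did not overlap in either experiment, and CCL22 fell to 59.5% and 55.1% of siNT. The difference was -0.11, with a 95% interval from -0.32 to 0.10 (limma adjusted p = 0.664), and it was called in 0 of 50 alternatives. CCL17 and CCL22, which bind the same receptor and are often described together in Hodgkin lymphoma, did not share this: CCL17 fell in p50/RelA KD, where its p52/RelB KD effect was not called, and CCL22 fell in both.

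TNFAIP3, which encodes the deubiquitinase A20, fell to 73.2% of siNT in p50/RelA KD and to 78.4% in p52/RelB KD, with a difference of 0.10 (interval -0.07 to 0.27). HAPLN3 fell to 68.6% and 77.2% (0.17, interval 0.05 to 0.29, adjusted p = 0.0974), and CXCR5, a B cell chemokine receptor, to 76.9% and 70.0% (-0.14, interval -0.29 to 0.02). The differences of CD40 (-0.10, interval -0.20 to 0.01), BCL2L1 (-0.14, interval -0.34 to 0.06), the gene of BCL-XL, STAT5A (-0.17, interval -0.32 to -0.02) and IRF5 (0.04, interval -0.08 to 0.16) were not called, and each of these genes fell in both KDs. BCL6, the germinal centre repressor, rose in both KDs, to 125% and 115% of siNT, with a difference of -0.12 (interval -0.27 to 0.02). None of these intervals, from CCL22 to BCL6, lay within 10% either way, so each still allows a difference of that size.

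CFLAR, the caspase inhibitor c-FLIP, fell in p52/RelB KD (-0.48) and its p50/RelA KD effect of -0.22 missed the threshold at an adjusted p of 0.0501. Its difference of -0.26 was not called (adjusted p = 0.0592) and was called in 10 of 50 alternatives. FOXP1 rose in p52/RelB KD alone, but its difference of 0.16 (adjusted p = 0.0531) was called in 14 of 50. VCAM1 and LEF1 had a called p52/RelB KD effect alone, and their differences of -0.29 and 0.14 were not called (adjusted p = 0.173 and 0.166). For CCR7, CCND2 and JUNB neither effect nor the difference was called, with intervals of -0.09 to 0.07, -0.12 to 0.19 and -0.05 to 0.28, of which that of CCR7 lay within 10% either way.

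**Figure D5:**
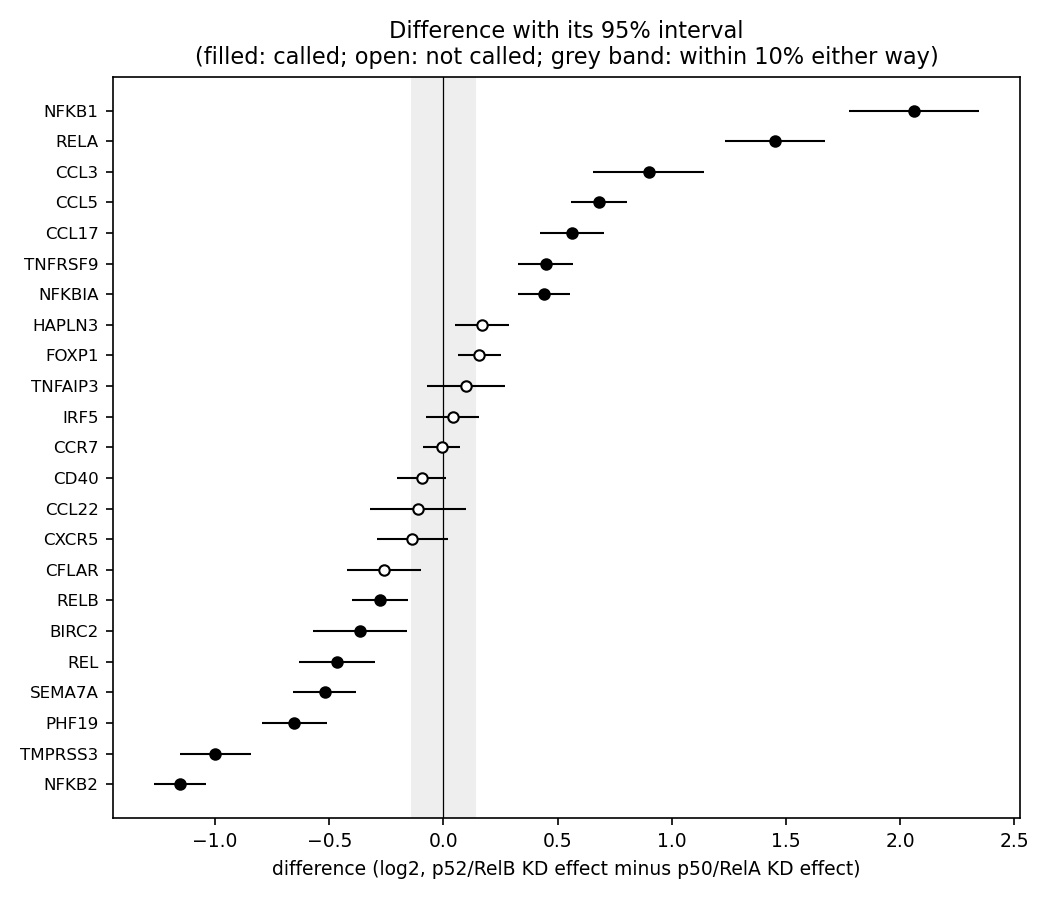
Points are differences (log2, p52/RelB KD effect minus p50/RelA KD effect) of 23 genes with their 95% limma intervals; filled points were called, open points were not, and the grey band marks 10% either way. The interval of CCL22 reached from -0.32 to 0.10, across the band, while those of CCL17, NFKBIA and TNFRSF9 lay above it and that of TMPRSS3 from -1.16 to -0.84.

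Surface receptors and lineage genes showed smaller groups. Of 33 surface receptors, 7 were called above 0 and 2 below, 27.3% of the list beside 4.35% of all clusters. IL2RA (0.59 ± 0.09), the interleukin 2 receptor α chain CD25, rose to 138% of siNT in p52/RelB KD, from a range of 7.12 to 7.33 to a range of 7.55 to 8.05, while the β chain gene IL2RB had a difference of -0.38, with neither KD effect called and the call lost in 17 of 50 alternatives. Of 26 B lineage and germinal centre genes, FCER2, PAX5 and IKZF3 were called above 0 and 0 below, 11.5% of the list. FCER2, which encodes CD23, rose without overlap from a range of 12.36 to 12.77 to a range of 12.96 to 13.20 in p52/RelB KD, and its difference was 0.58 ± 0.05 (limma adjusted p = 1.23e-07). The differences of PAX5 (0.23), the B cell identity factor, and IKZF3 (0.19) were smaller, and that of IKZF3 was lost in 33 of 50 alternatives.

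Among 9 plasma cell genes, TNFRSF17 (-0.61), the receptor BCMA, and PRDM1 (-0.46 ± 0.09), the plasma cell regulator BLIMP1, fell in p52/RelB KD alone, and CD27 (0.38 ± 0.07) rose. TNFRSF17 lay near the limit of 6 in experiment 1, with its lowest siNT array at 5.68 and its highest p50/RelA KD array at 6.58. Whether a fall in p50/RelA KD could be read at such low values was not tested. The call for TNFRSF17 was lost in 5 of 50 alternatives. Of 12 MHC class II genes, HLA-DPB1 (-0.33 ± 0.05) and HLA-DQA1 (-0.36 ± 0.07) were called below 0 and 8 fell in p52/RelB KD, with a median difference of -0.12, and cross-hybridization between these related genes is uncertain. Of 10 MHC class I genes, TAP2 (0.34), a peptide transporter, was called above 0. TYK2 (0.30) and JAK3 (0.31) were called above 0 and PIM2 (-0.20) below among 18 JAK-STAT genes. FOS (0.47 ± 0.11) was called above 0 among 16 AP-1 factors. The called shares were 33.3% of plasma cell, 16.7% of MHC class II, 10% of MHC class I and 16.7% of JAK-STAT genes. That of AP-1 factors, 6.25%, was near the 4.35% of all clusters. Over all clusters 7.70% fell in p52/RelB KD.

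Of 9 apoptosis inhibitors tested, 1 was called above 0 and 1 below, and of 21 genes the study singled out, 4 and 2 were. In the remaining lists at most 2 genes were called, from 0% of a list to 10%, beside 4.35% of all clusters. In S phase genes 2 of 35 were called above 0 (median 0.06), and in G2/M genes 0 of 28 (median -0.07). Among G1 regulators CCND3 (0.27) was called of 15, among Notch genes HES1 (0.30) and HEY1 (-0.30) of 22, among Polycomb genes PHF19 of 12, and among cholesterol synthesis genes INSIG1 (-0.30) of 17. Among p53 targets 1 of 21 was called, among unfolded protein and amino acid stress genes SLC7A5 (-0.24) of 29, and among death receptors, BH3 proteins and caspases FAS and CASP6 (-0.28) of 20. Heat shock genes (12), ribosomal proteins (18), respiratory chain genes (22) and RT-qPCR reference genes (8) had 0 called, with medians between -0.05 and 0.04.

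For 50 clusters the difference was called without a call in either KD, 32 above 0 and 18 below. In all 50 the effects had opposite signs. IL15RA (0.21), the interleukin 15 receptor, TNFRSF11A (0.21), which encodes RANK, and CD86 (0.22), the costimulatory ligand, lay above 0, and DAPK1 (-0.27), a kinase of cell death, and FLI1 (-0.23), an ETS factor, lay below. These names were chosen after their values were seen.

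Promoters were read for motifs that bind the factors named above. Windows of 250 bases before to 50 after the start came from RefSeq (GRCh38.p14) for 10890 of the genes tested. The motifs were the κB consensus, the interferon response element as GAAANNGAAA, and the core of the hypoxia response element as ACGTG, each searched on both strands, and a stretch could count for more than 1 motif. The κB consensus stood in 6.87% of all these promoters and in 15 of 45 textbook NF-κB targets (33.3%), GAAANNGAAA in 2.67% and in 21 of 30 interferon genes (70%), and ACGTG in 25.9% and in 20 of 35 hypoxia and glycolysis genes (57.1%).

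By the sign of the difference, the κB consensus stood in 29 of 198 promoters called above 0 (14.6%) and in 20 of 273 called below 0 (7.33%). GAAANNGAAA stood in 17 (8.59%) and 2 (0.733%), and ACGTG in 53 (26.8%) and 90 (33%). Of the 22 genes lower in p50/RelA KD alone with a called difference, 8 held the κB consensus (36.4%). Of the 50 lower in both KDs, with or without a called difference, 7 did (14%). The 22 include textbook NF-κB targets such as NFKBIA, TNFRSF9 and IL6, so their share is not independent of that list's. These shares describe letters in a window and show no binding.

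The promoter stretches below, shown to place the motifs, are those of the members with the largest called differences in each list that held the motif before the start, and that of CCL22 as the gene that fell in both KDs. They are read on the gene's strand (GRCh38.p14), end at or before the start, and carry the match, or overlapping matches, in capitals.
OAS3, chr12:112938432-112938473, plus: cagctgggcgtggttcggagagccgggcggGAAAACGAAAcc
IFIT3, chr10:89327845-89327914, plus: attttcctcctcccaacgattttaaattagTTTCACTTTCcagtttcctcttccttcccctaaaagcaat
DDIT4, chr10:72273769-72273833, plus: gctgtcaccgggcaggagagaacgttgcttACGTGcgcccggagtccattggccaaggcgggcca
REL, chr2:60881498-60881567, plus: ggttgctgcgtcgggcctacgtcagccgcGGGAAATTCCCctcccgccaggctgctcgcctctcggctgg
TNFRSF9, chr1:7940873-7940942, minus: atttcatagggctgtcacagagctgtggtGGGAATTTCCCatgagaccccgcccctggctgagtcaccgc
NFKBIA, chr14:35404791-35404860, minus: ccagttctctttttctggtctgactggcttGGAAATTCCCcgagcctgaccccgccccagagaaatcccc
CCL22, chr16:57358568-57358637, plus: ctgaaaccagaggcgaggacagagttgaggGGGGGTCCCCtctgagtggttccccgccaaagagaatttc
These genes were picked for holding the motif, so its presence here says nothing of their responses.

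The arrays matched the labelled cell type in part. All 11 Hodgkin cell markers lay at a mean of 6 or more in each arm, and TNFRSF8, which encodes CD30, had means from 9.06 to 9.21. MS4A1, the B cell antigen CD20 that Hodgkin cells lack, had means from 4.38 to 4.88. Among T and NK cell markers 7 of 13 reached 6 in experiment 1 and 11 of 13 in experiment 2, where the whole array lay higher, and 0 of those tested were called for the difference, like the 6 myeloid markers tested. Of 11 fibroblast, endothelial and epithelial markers tested CDH1 (0.34 ± 0.08), which encodes E-cadherin, was called above 0. Array medians ran from 6.94 to 6.99 in experiment 1 and from 7.39 to 7.51 in experiment 2.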

How the data were processed

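RNA of L1236 cells was hybridised to 24 Affymetrix Human Gene 1.0 ST arrays. The authors deposited log2 values made by RMA, which corrects background, quantile-normalizes arrays and summarizes probes; no version is stated in the sources used here. Array medians split by experiment, so each experiment was treated as normalized on its own. RMA understates large differences and carries no detection call. The number of arrays limits the precision (median SE of a difference 0.0739). The methods name a covariate adjustment without the covariates, and none was taken to be in the values.

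Of 33297 clusters, 19460 had 1 gene symbol in the platform annotation, updated through the NCBI gene table (GRCh38.p14, names only), 1754 had several and 12083 none. Clusters with 1 symbol at 6 or more in more than 6 of the 12 arrays of each experiment were fitted with limma 3.58.1 in R 4.3.3 (lmFit, eBayes), over 24 arrays with 6 blocks, 1 for each replicate of each experiment, an effect for each KD and their difference (16 residual degrees of freedom; Benjamini-Hochberg over all clusters). The script was tested on simulated data. In lists, a gene was read from its cluster with the highest mean level. Deviations of siNT and KD from their arm means correlated across clusters within every replicate, at 0.192 to 0.448 in experiment 1 and 0.304 to 0.582 in experiment 2, so the replicate numbers in the labels were taken as pairs. Replicates 1 and 2 of experiment 2 shared a scan batch, each other replicate had its own, and none held both experiments. The highest correlation of a pair of arrays was 0.998.

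Named were the targets and REL, the 15 largest called differences in each direction outside histone genes, the 8 largest of each kind of response, the 8 genes lowest in p50/RelA KD among those lower in both without a called difference, up to 6 called members of each list, and the genes the study singled out. Members and lists were chosen with earlier results of these data known. The alternatives changed the block, scaling, filter, sequences, variance model and arrays.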

Additional observations from a re-analysis of the deposited data

Results flagged for a closer look

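The effects of the KDs differed for 637 clusters in the limma test of the difference itself. Among them were 19 hypoxia and glycolysis genes below 0, 8 interferon-stimulated genes above 0, and the 9 clusters called in opposite directions, with differences of 0.79 for OAS3, 0.74 for PRR5L, 0.68 for CCL5, 0.61 for APOD, 0.55 for TESC, 0.51 for EGR1, 0.43 for IGSF3, 0.42 for SNX11 and 0.37 for CD44.

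Within arms of 6 arrays, an array stood apart when its gap to the nearest other made up more of the arm's range than Dixon's 95% limit. Of 448 arms tested (112 named genes), 24 had such an array (5.36%), and chance gives about 5%. In 11 of the 24 it was the p52/RelB KD array of sequence 2 in replicate 3. That array was the lowest of its arm for GPR160 (gap 0.844 of the range), BIRC2 (0.805), LOC646214 (0.788), TAP2 (0.672), TTLL6 (0.662), ASPN (0.659), ACADSB (0.652) and FAR2 (0.625), and the highest for HES1 (0.799), PTK2B (0.7) and DUSP2 (0.626).

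In p52/RelB KD, sequence 1 of replicate 3 stood apart for SNX11 (0.657, highest) and PAX5 (0.652, lowest), and sequence 2 of replicate 1 for PRR5L (0.737, lowest). In siNT of experiment 1, sequence 2 of replicate 1 stood apart for VEGFA (0.694, highest), CCR7 (0.684, highest) and CSF1 (0.651, lowest), sequence 1 of replicate 3 for PTPN6 (0.869, lowest), and sequence 2 of replicate 3 for TNFRSF17 (0.784, lowest). In p50/RelA KD, the highest array stood apart for HLA-DPB1 (0.722) and TNFRSF17 (0.681). In siNT of experiment 2, the lowest array stood apart for HEY1 (0.765) and the highest for KCNJ15 (0.745) and NFKBIE (0.692).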

How the results depend on the processing

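Among the 112 gene differences examined, no called difference changed sign between the fit above and any of 50 alternatives. Some differences without a call did change sign, among them those of BCL2L1 (-0.43 to 0.16) and CCL22 (-0.27 to 0.05). Many counts moved by more than 1.5 times, and the cause was not tested. Without the replicate block, 250 clusters were called for the difference (103 above 0, 147 below), 75 for p50/RelA KD and 4 in opposite directions, with 2 interferon genes, 6 hypoxia and glycolysis genes, and 10 and 1 textbook NF-κB targets above and below 0, and all 250 were among the 637. The block as a random effect gave 5 in opposite directions and 3 interferon genes, the scan batch as block 12 hypoxia and glycolysis genes, arrays centred on their medians 171 above 0, and a limit of 7 on low values 14 in opposite directions.

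With the sequences averaged, which leaves 1 value for each biological replicate of an arm, 117 were called (51 above 0, 66 below). In that fit 36 were called for p50/RelA KD and 3 in opposite directions. It gave 4 interferon genes, 5 hypoxia and glycolysis genes, and 8 and 1 NF-κB targets. Sequence 1 alone gave 354 (153 below 0), 79 for p50/RelA KD, 4 in opposite directions and 0 NF-κB targets below 0. Sequence 2 alone gave 3 (2 above 0, 1 below), 4 for p50/RelA KD, 146 for p52/RelB KD, 0 in opposite directions and 0 in each of the gene lists above.

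Array weights gave 1123 (568 above 0, 555 below), 397 for p50/RelA KD and 15 in opposite directions. Without the outlying p52/RelB KD array, 490 lay above 0, 365 were called for p50/RelA KD, 22 were opposite and 17 interferon genes were called. Without both outlying arrays these were 434, 422, 18 and 13, of 967 in all. Without the outlying p52/RelB KD array and with a variance for each experiment, alternatives chosen after seeing the data, 1098 were called, 579 above 0, with 19 interferon genes.

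Leaving out 1 array or 1 replicate gave 216 to 936 calls, 97 to 490 above 0 and 119 to 446 below, 71 to 365 for p50/RelA KD, 1185 to 2146 for p52/RelB KD, 4 to 22 opposite, 2 to 17 interferon genes, 5 to 22 hypoxia and glycolysis genes, and 9 to 18 and 2 to 8 NF-κB targets above and below 0. The lowest counts came without replicate 3 of experiment 1 (for NF-κB targets below 0 also without replicate 1 of experiment 2), except for p50/RelA KD and opposite directions (without replicate 2 of experiment 1) and p52/RelB KD (without replicate 1 of experiment 2). The highest came without the outlying p52/RelB KD array, except for p52/RelB KD (without the array of sequence 1 in replicate 3 of that arm, which gave as many NF-κB targets below 0), with the count of hypoxia and glycolysis genes as high without the siNT array of sequence 2 in replicate 1 of experiment 1.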
